A study of Mus musculus with 44 samples.

Results

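The CCN genes Ccn1, Ccn2, Ccn3, Ccn4 and Ccn5, whose older symbols are Cyr61, Ctgf, Nov, Wisp1 and Wisp2, were followed through the onset and the recovery of bleomycin-induced skin fibrosis in mice. The 5 genes were taken by name among 43411 genes with values, and all 5 passed the filter on low values that left 17037 genes for testing. The family was chosen by its normalized counts across the groups of these same mice, so its levels, fold changes and calls are given as a description. Ccn6, a further gene of the family, was not analysed here.

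CCN proteins are secreted matricellular proteins, which signal within the extracellular matrix rather than building it. Most carry an IGFBP-like, a von Willebrand type C, a thrombospondin type 1 and a C-terminal cystine knot domain, and Ccn5 lacks the last of these. They bind integrins, heparan sulfate proteoglycans and growth factors. Ccn1 and Ccn2 are widely used as readouts of the transcriptional coactivators YAP and TAZ, and Ccn2 is a classical TGF-beta response gene of scleroderma skin, whereas Ccn3 is often described as counteracting Ccn2.

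The samples were back skin biopsies of 44 wild-type C57Bl/6 female mice, 8 weeks old at the start, and there was no engineered allele in any group. Bleomycin, a DNA-damaging antibiotic, was injected subcutaneously every day at 100 µL, at 1 U/mL as the labels give it, whereas a legend of the study gives another concentration. The groups were saline (n = 10), 2 weeks of bleomycin (n = 10), 4 weeks of bleomycin (n = 10), and 4 weeks of bleomycin followed by 6 weeks (n = 6) or 10 weeks (n = 8) of recovery without injections. The saline mice form a single group with no week of sampling named in the labels, so the age of the mice and the recovery cannot be told apart. RNA came from a piece of each biopsy with its cell types together, and in such bulk samples fewer cells of a type and less RNA per cell cannot be told apart.

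Values are normalized counts, that is, reads per gene divided by a size factor for each mouse. Between 8509094 and 15285577 reads per mouse fell on genes (median 11310008), and the lowest value of any CCN gene rested on 19 reads. The part of counting error in the spread between mice was not tested. The median correlation of a mouse with the others of its group, across genes, ran from 0.9378 to 0.9848. It was lowest in mouse 2 of the 2-week group and in mouse 1 of the saline group (0.9421), and fold changes of CCN genes whose call changed, or whose size moved by more than 1.5 times, without these 2 mice are given with both values. The markers of skin were present: all 8 fibroblast and all 6 keratinocyte markers were above 0 in every mouse.

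Among the CCN genes, a RefSeq promoter entry was at hand for Ccn1. It is printed because Ccn1 is a textbook target of the TEAD factors, the DNA-binding partners of YAP and TAZ, whose pathway is described further on. The 250 bases before the gene's start in RefSeq lie at chr3:145649986-145650235 on the minus strand of GRCm38.p6. That start, from which the distances below are counted, lies a few bases upstream of the one in the gene model given further on. The bases read 5′ to 3′ as follows, with the TEAD motif CATTCC and the TATA box TATAAA in capitals.
Ccn1: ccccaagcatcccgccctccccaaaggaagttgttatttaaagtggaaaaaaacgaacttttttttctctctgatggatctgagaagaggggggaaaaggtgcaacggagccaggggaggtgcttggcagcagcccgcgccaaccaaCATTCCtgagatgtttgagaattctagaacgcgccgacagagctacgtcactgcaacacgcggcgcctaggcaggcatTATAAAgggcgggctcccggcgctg
The TEAD motif, searched on both strands, begins 103 bases before the start, and 12.6% of 32851 promoters of the same length held it. The TATA box, searched on the gene's strand alone, begins 25 bases before the start (7.59% of promoters). The core CGTCA of the cyclic AMP response element lies 58 bases before the start (17.8% of promoters). The AP-1 motif TGANTCA (6.75%), the CArG box bound by SRF (1.47%) and the SMAD-binding letters CAGAC (42.2%) had no match in this window. A match describes letters only, and no binding was measured.

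The 5 genes lie on 4 chromosomes, and Ccn3 and Ccn4 share chromosome 15. In GRCm38 with GENCODE gene models, Ccn1 (ENSMUSG00000028195.4) spans chr3:145646976-145649981 on the minus strand, and Ccn2 (ENSMUSG00000019997.9) spans chr10:24595442-24598683 on the plus strand. Ccn3 (ENSMUSG00000037362.8) spans chr15:54745702-54754039, Ccn4 (ENSMUSG00000005124.7) chr15:66891320-66923201 and Ccn5 (ENSMUSG00000027656.7) chr2:163820861-163833146, all on the plus strand. The exons of Ccn2 overlap an antisense transcript, Gm15270, and how the counting treated strand is not given in the sources used here. Gm15270 itself had 1.84 to 13.7 normalized counts, at most 2.77% of the Ccn2 value in the same mouse.

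The CCN genes followed 3 courses over the time points, which a plot of every mouse shows. Ccn1 and Ccn2 were higher from the bleomycin weeks onward and remained above saline through recovery. Ccn3 and Ccn5 had both their lowest group medians at 2 weeks of bleomycin and their highest after 6 weeks of recovery. The highest medians of Ccn1 and Ccn2 also came after 6 weeks of recovery. Ccn4 likewise had its lowest group median at 2 weeks, but its highest at 4 weeks of bleomycin.

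**Figure D1:**
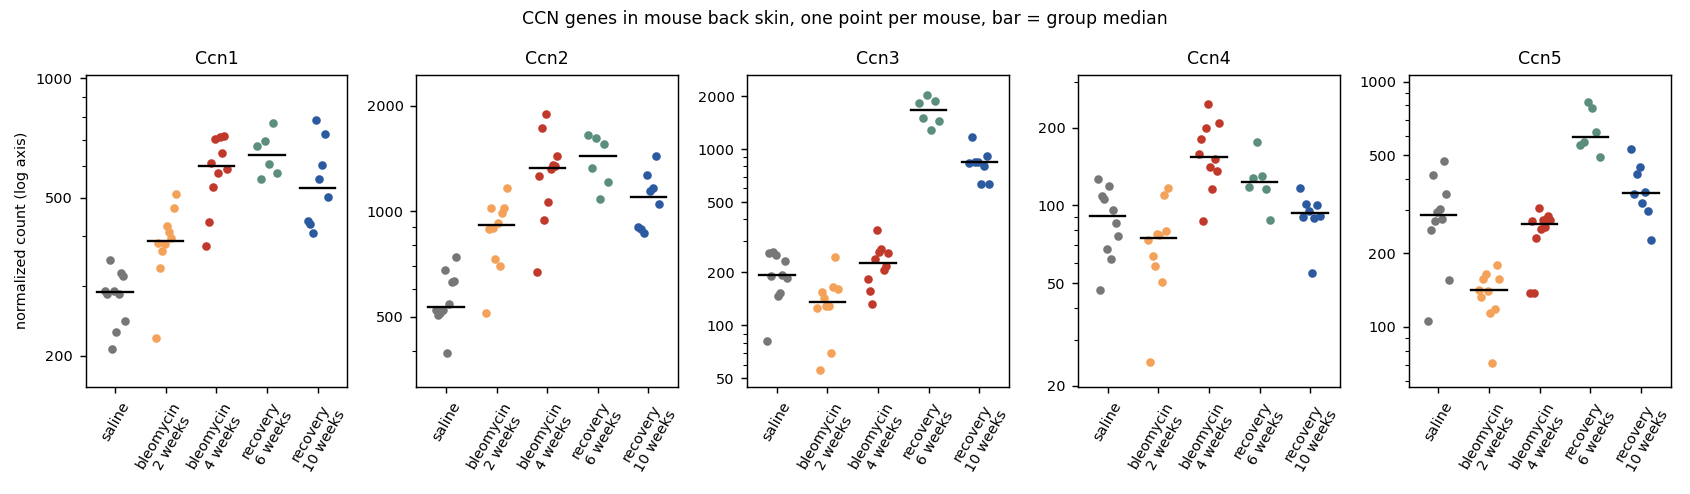
Normalized counts of the 5 CCN genes (log axis, a panel and a scale for each gene) in each of 44 mice by group, with the group median as a bar. The 6 mice at 6 weeks of recovery sit between 1290 and 2045 for Ccn3, above every mouse of the saline and bleomycin groups, whose highest value is 348.4.

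Ccn1, an adhesive matrix signal of wound healing that can drive fibroblast senescence, was low in saline skin at 208.7 to 349.5 normalized counts (median 288.9). At 2 weeks of bleomycin the values were 221.7 to 510.6 (median 390.2), and at 4 weeks 378.7 to 716.7 (median 601.8). After 6 weeks of recovery they were 556.2 to 769.9 (median 641.1), and after 10 weeks 407.5 to 786.4 (median 530.9). The 4-week group and both recovery groups lay wholly above saline, and 8 of 10 mice at 2 weeks did.

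The fold changes of Ccn1 are on the log2(normalized count + 1) scale with their standard errors (SE) from limma, as are all those that follow. A gene met the criteria for differential expression when it changed more than 1.5-fold (0.585 on the log2 scale) with an adjusted p below 0.05 over all genes tested. Against saline, Ccn1 differed by 0.45 ± 0.13 at 2 weeks, which missed the fold criterion, and rose by 1.05 ± 0.13 at 4 weeks. In recovery it was up by 1.20 ± 0.15 at 6 weeks and by 0.95 ± 0.13 at 10 weeks. Between 2 and 4 weeks of bleomycin it rose by 0.60 ± 0.13, a value just over the fold criterion. Recovery against 4 weeks of bleomycin gave 0.15 ± 0.15 at 6 weeks and -0.10 ± 0.13 at 10 weeks, and neither value met the criteria.

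Ccn2, the connective tissue growth factor that promotes matrix production by fibroblasts, ran close to Ccn1. Saline skin held 394 to 742.5 normalized counts (median 532.3), 2-week skin 513.7 to 1169 (median 912.2) and 4-week skin 670 to 1890 (median 1331). Recovery skin held 1084 to 1646 (median 1442) at 6 weeks and 865.6 to 1443 (median 1097) at 10 weeks. Both recovery groups lay wholly above saline, and 9 of 10 mice did at 4 weeks.

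Ccn2 rose against saline in all 4 groups, by 0.63 ± 0.14 and 1.16 ± 0.14 after 2 and 4 weeks of bleomycin and by 1.31 ± 0.16 and 0.94 ± 0.15 after 6 and 10 weeks of recovery. The 2-week rise was the smallest, at 1.54-fold, and with skeletal muscle markers as a covariate it was 0.56, under the fold criterion. From 2 to 4 weeks the difference was 0.53 ± 0.14, just under that criterion. Against 4 weeks of bleomycin the differences were 0.15 ± 0.16 and -0.22 ± 0.15 in recovery, within 1.5 SE of 0.

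Ccn3, a family member expressed in mesenchymal and vascular cells, had the largest fold change of the family. It was at 81.08 to 261.2 normalized counts in saline skin (median 192.3), 55.92 to 244.2 at 2 weeks (median 135.8) and 133 to 348.4 at 4 weeks (median 227.1). After 6 weeks of recovery it was at 1290 to 2045 (median 1672), and after 10 weeks at 632.6 to 1170 (median 841.8). The bleomycin groups overlapped saline, whereas both recovery groups lay wholly above all 3 earlier groups, and the 10-week group lay wholly below the 6-week group.

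Against saline, Ccn3 differed by -0.53 ± 0.20 at 2 weeks and 0.24 ± 0.20 at 4 weeks, neither of which met the criteria. It rose by 3.14 ± 0.23 (8.81-fold) at 6 weeks of recovery and by 2.14 ± 0.21 (4.40-fold) at 10 weeks. By size of the fold change, these values stood at place 14 and place 27 among the 17037 genes tested in those comparisons. From 4 weeks of bleomycin, the rises were 2.90 ± 0.23 and 1.90 ± 0.21. The level at 10 weeks of recovery was 1.00 ± 0.24 below that at 6 weeks on the log2 scale, which missed the criteria with all 44 mice. With the 42 mice the fall kept its size, with an SE of 0.19, and met the criteria. Neither mouse left out was in a recovery group, so the call changed only through the spread and the adjustment shared by the fit.

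The saline mouse that stood apart from its group also had the lowest Ccn3 of the group, 81.08 against 147.9 in the next. With 42 mice, the rises of Ccn3 over saline were 3.01 at 6 weeks of recovery and 2.00 at 10 weeks, and the difference at 4 weeks was 0.10. With the hair follicle markers as a covariate, the 4-week difference from saline changed sign, from 0.24 to -0.11, and neither value met the criteria.

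Ccn5, which is expressed by fibroblasts and smooth muscle and is often described as restraining their growth, fell at 2 weeks. The saline mice ranged from 106.1 to 473.4 normalized counts (median 285), the 2-week mice from 71.08 to 178.3 (median 141.1) and the 4-week mice from 137.8 to 305.9 (median 262). The recovery mice ranged from 490.8 to 822.1 at 6 weeks (median 595.4) and from 225.3 to 532.9 at 10 weeks (median 351.4). The 6-week recovery group lay wholly above saline, whose range was the widest of the 5 groups relative to its mean (coefficient of variation 37.7%).

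Ccn5 fell by 0.99 ± 0.19 on the log2 scale at 2 weeks against saline, and the 2 groups overlapped. It differed by -0.19 ± 0.19 at 4 weeks, rose by 1.23 ± 0.22 at 6 weeks of recovery and differed by 0.42 ± 0.20 at 10 weeks. In the 42 mice the values that missed the criteria were -0.34 at 4 weeks and 0.27 at 10 weeks of recovery. From 4 weeks of bleomycin it rose by 1.42 ± 0.22 at 6 weeks of recovery. The rise by 0.61 ± 0.20 at 10 weeks of recovery was close to the fold criterion, and edgeR (0.58) and the skeletal muscle covariate (0.41) put it below. Between 6 and 10 weeks of recovery Ccn5 differed by -0.81 ± 0.23, which missed the criteria.

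Ccn4, a WNT1-inducible member that fibroblasts make in fibrotic lung and healing wounds, had the fewest reads. It was at 46.82 to 126.4 normalized counts in saline (median 91.05), 24.71 to 117.4 at 2 weeks (median 75.04) and 87 to 247.7 at 4 weeks (median 154.5). In recovery it was at 87.57 to 176.9 at 6 weeks (median 122.9) and 54.48 to 117 at 10 weeks (median 93.16). Every pair of neighbouring time points overlapped, and the 10-week recovery mice lay within the saline range.

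Ccn4 rose by 0.86 ± 0.20 at 4 weeks against saline and by 1.19 ± 0.20 between 2 and 4 weeks of bleomycin. It differed from saline by -0.33 ± 0.20 at 2 weeks of bleomycin, and by 0.52 ± 0.23 and 0.08 ± 0.21 after 6 and 10 weeks of recovery, none of which met the criteria. In the 42 mice the 2-week value was -0.11 and that at 10 weeks of recovery 0.14. From 4 weeks of bleomycin it differed by -0.34 ± 0.23 at 6 weeks of recovery and fell by 0.78 ± 0.21 at 10 weeks, a fall that kept its size (-0.78) but lost its call with the hair follicle covariate.

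Counted over the family, 1 CCN gene rose and 1 fell at 2 weeks against saline, where 9.3% of all genes tested rose and 7.43% fell by the same criteria. At 4 weeks 3 of 5 rose (10.5% of all genes rose), at 6 weeks of recovery 4 of 5 (3.33%) and at 10 weeks 3 of 5 (2.05%). These 4 comparisons share the saline mice. Between 2 and 4 weeks of bleomycin 4 of 5 rose (1.49%). From 4 weeks of bleomycin, 2 rose at 6 weeks of recovery (4.8%), and 2 rose and 1 fell at 10 weeks (6.73% of all genes rose and 9.1% fell). Between 6 and 10 weeks of recovery limma called 0 of 5 (0.088% of all genes, in either direction), and edgeR called 1 and DESeq2 2. There 3 of 5 were at an unadjusted p under 0.05 in limma, beside 2045 of all 17037 genes. Against saline, 1 CCN gene lay wholly higher at 4 weeks (4.31% of all genes), 4 at 6 weeks of recovery (1.41%) and 3 at 10 weeks (0.282%). Against 4 weeks of bleomycin, Ccn3 and Ccn5 lay wholly higher at 6 weeks of recovery (4.44%) and Ccn3 at 10 weeks (2.66%), and Ccn3 lay wholly lower at 10 than at 6 weeks of recovery (0.587%). Because the values were known when the family was chosen, nothing is read from these counts.

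**Figure D2:**
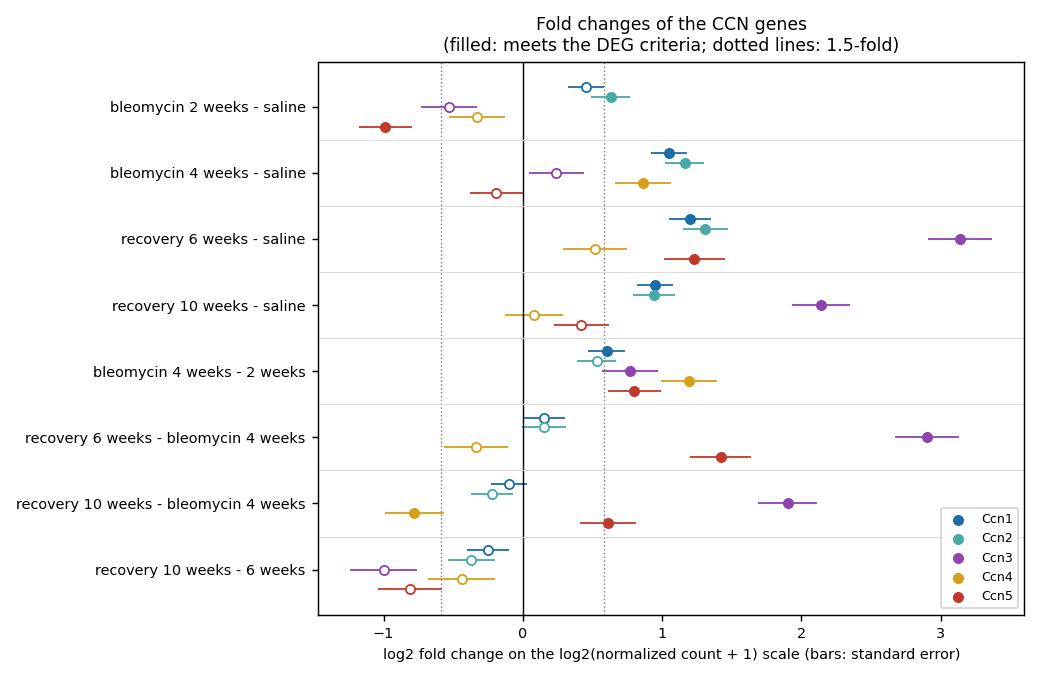
Log2 fold changes of the 5 CCN genes in 8 comparisons on the log2(normalized count + 1) scale, with bars of 1 SE; filled points met the criteria for differential expression and dotted lines mark 1.5-fold. Ccn3 reaches 3.14 against saline and 2.90 against 4 weeks of bleomycin at 6 weeks of recovery, while Ccn1 and Ccn2 lie within 0.22 of 0 in both comparisons of recovery with 4 weeks of bleomycin.

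To compare the genes with each other, normalized counts were divided by the length of the exons in kilobases. In saline skin the medians per kilobase were 186 for Ccn2, 148 for Ccn5, 143 for Ccn1, 67.0 for Ccn3 and 16.4 for Ccn4. Ccn5 and Ccn1 overlapped almost fully in saline, from 55.2 to 246 against 103 to 173 per kilobase, so their order there is not firm. At 4 weeks of bleomycin the medians per kilobase were 465 for Ccn2, 298 for Ccn1, 136 for Ccn5, 79.1 for Ccn3 and 27.8 for Ccn4.

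The order changed in recovery through Ccn3. At 6 weeks of recovery Ccn3 led with a median of 583 per kilobase, followed by Ccn2 at 504, Ccn1 at 318, Ccn5 at 309 and Ccn4 at 22.1. Ccn3 exceeded Ccn2 per kilobase in 6 of 6 of these mice, although the ranges of the groups overlapped (450 to 713 against 379 to 575), and Ccn1 and Ccn5 could not be ordered. At 10 weeks Ccn2 led again at 383 per kilobase, with Ccn3 at 293 and Ccn1 at 263, and Ccn3 exceeded Ccn2 in 1 of 8 mice. In the 30 saline and bleomycin mice Ccn3 exceeded neither Ccn2 nor Ccn1 nor Ccn5, and Ccn4 was the lowest per kilobase in all 44 mice.

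**Figure D3:**
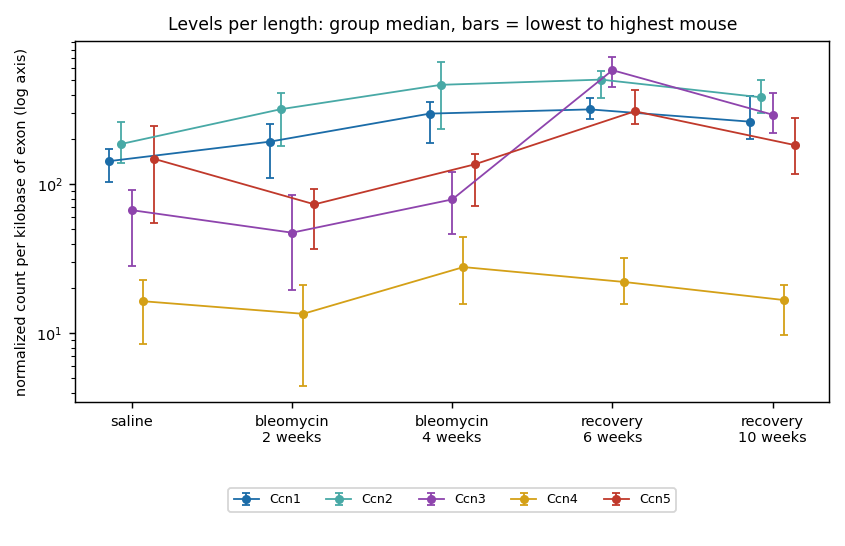
Normalized counts per kilobase of exon (log axis) for the 5 CCN genes, as group medians with bars from the lowest to the highest mouse. Ccn3 moves from 79.1 at 4 weeks of bleomycin to 583 at 6 weeks of recovery, and Ccn4 stays lowest in every group.

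Whether the genes also varied together from mouse to mouse was described from the deviations of log2 values from the group means over 44 mice, which share library, depth and tissue makeup. Ccn1 and Ccn2 went together most closely, with a Pearson r of 0.69 (Spearman rho 0.63), and 0.55 when the 2 mice with the most extreme Ccn1 were left out. Within groups their r ran from 0.25 in saline to 0.95 at 10 weeks of recovery. The lowest Ccn1 and the lowest Ccn2 of the group came from the same mouse at 2 weeks, at 4 weeks and at 10 weeks of recovery.

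Ccn3 and Ccn5 had an r of 0.55 (rho 0.42, and 0.49 without the 2 farthest mice), and Ccn3 and Ccn4 an r of 0.37 (rho 0.25, and 0.36). Ccn4 and Ccn5 had an r of 0.23 (rho 0.33, and 0.27 without the 2 farthest mice), which was 0.46 in the 42 mice. For the other 6 pairs r lay between 0.00 and 0.27, the lowest being Ccn4 with Ccn1 and with Ccn2.

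**Figure D4:**
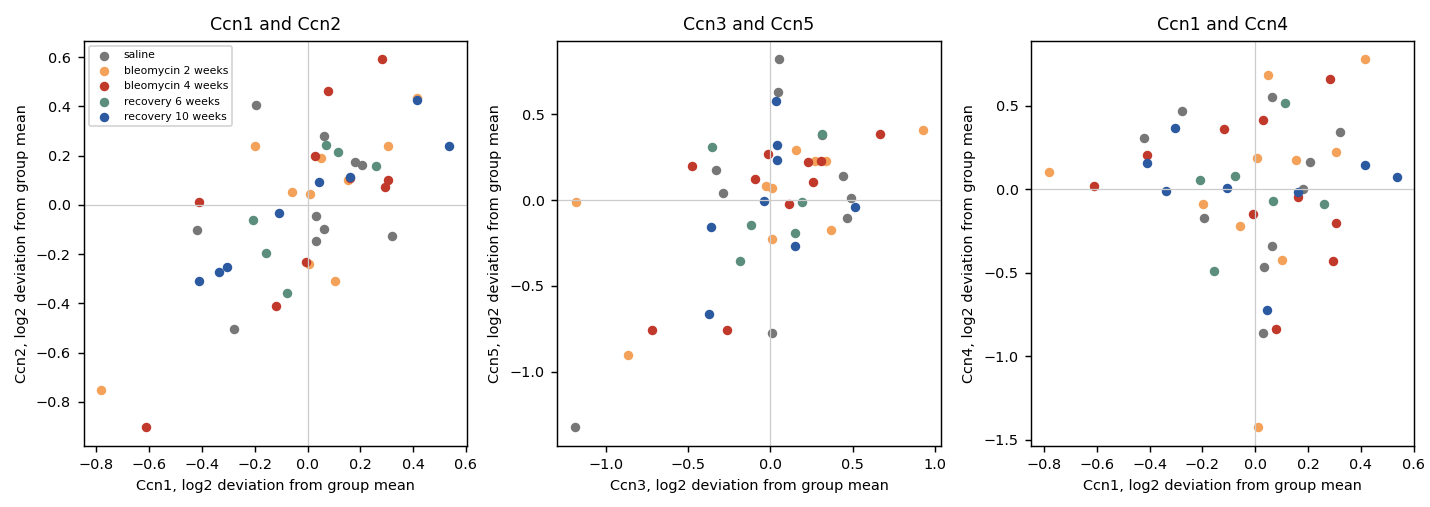
Deviations of log2(normalized count + 1) from the group mean in 44 mice for 3 pairs of CCN genes, a point for each mouse coloured by group. Ccn1 and Ccn2 lie along a diagonal (r 0.69), Ccn3 and Ccn5 less tightly (r 0.55), and Ccn1 and Ccn4 show no slope (r 0.00).

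Among 15054 genes with a mean above 10, genes among the 5 closest to each member by the same r were then listed. For Ccn1 these were Ccn2 (0.69), Ecsit, Bag3 and Poldip2 (0.66 each). Bag3 is a co-chaperone induced by mechanical and proteotoxic stress. For Ccn2 they were Ccn1 (0.69), Mknk2, Bmp2 and Tbc1d8 (0.67 each), of which Bmp2 is a ligand of the TGF-beta superfamily.

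For Ccn3 they were Meox1 (0.79), Galnt17 and Ptprm (0.78 each), Sulf1 and Thbd (0.77 each). Meox1 is a homeobox factor of mesoderm, Sulf1 trims heparan sulfate, and Thbd is thrombomodulin, an endothelial anticoagulant receptor. For Ccn4 they were Adam12, Cdh11, Armcx2 and Kif26b (0.74 each) and Vcan (0.72). Adam12, the adhesion molecule Cdh11 and the proteoglycan Vcan are genes of activated mesenchyme. For Ccn5 they were Srpx2, Stat5a and Apol6 (0.69 each), Epb41l2 and Syt11 (0.68 each), of which Stat5a is a transcription factor of cytokine signalling. How high such values run by chance among so many candidates was not tested, and no shared function is read from them.

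Further genes of the pathways that CCN proteins act in or respond to were counted with the same criteria, over 95 distinct genes tested. At 2 weeks 6 rose and 13 fell against saline, beside 9.3% and 7.43% of all genes. At 4 weeks 12 rose and 5 fell (10.5% and 7.37% of all genes), at 6 weeks of recovery 5 rose and 1 fell (3.33% and 1.71%), and after 10 weeks 7 rose and 0 fell (2.05% and 0.998%). All adjusted p-values that follow are from limma with Benjamini-Hochberg adjustment over all 17037 genes.

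Of 12 receptors and partners of CCN proteins, 2 rose at 2 weeks and 3 rose and 1 fell at 4 weeks against saline. The risers were the leukocyte integrin subunits Itgam, by 1.57 ± 0.19 at 2 weeks (adjusted p = 9.96e-09) and 1.40 ± 0.19 at 4 weeks (adjusted p = 1.22e-07), and Itgb2, by 1.27 ± 0.15 and 1.20 ± 0.15, joined at 4 weeks by the fibronectin receptor subunit Itga5 (0.91 ± 0.13, adjusted p = 3.63e-07). Together Itgam and Itgb2 form the receptor through which macrophages bind Ccn1 and Ccn2. Both recovery groups had 0 of 12 called against saline by limma, edgeR and DESeq2, with 5 and 3 at an unadjusted p under 0.05. Macrophage markers rose in 4 of 6 cases at 2 and at 4 weeks, and their summed level moved with these integrins, from a median of 15140 normalized counts in saline (8954 to 23185) to 28036 at 2 weeks (21013 to 42739) and 14906 at 6 weeks of recovery (13449 to 19613), and its part in their change was not tested.

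Components of the YAP/TAZ and Hippo pathway were counted as well. Of 15, limma, edgeR and DESeq2 called 0 against saline in each of the 4 groups. Limma called 16.7%, 17.9%, 5.04% and 3.05% of all genes there, in either direction. In limma, 8, 5, 6 and 1 of the 15 were at an unadjusted p under 0.05, beside 7478, 7655, 4230 and 3247 of all 17037 genes. Yap1 differed from saline by -0.29 ± 0.04 at 2 weeks (adjusted p = 1.31e-07) and -0.27 ± 0.04 at 4 weeks (adjusted p = 4e-07), under the fold criterion. Vgll4, which competes with YAP for TEAD, was 0.60 ± 0.15 higher after 10 weeks of recovery than at 4 weeks of bleomycin (adjusted p = 0.00125). Tead2 differed by -0.56 ± 0.14 at 2 weeks (adjusted p = 0.00121) and the kinase gene Stk4 by -0.39 ± 0.09 at 6 weeks of recovery (adjusted p = 0.00593), both under the fold criterion.

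Of 18 YAP/TAZ target genes tested other than CCN genes, 1 rose and 2 fell at 2 weeks, 1 rose and 1 fell at 4 weeks, and 1 rose in each recovery group. The riser was Ankrd1 each time, a YAP target that is also a stress gene of striated muscle. It rose by 3.56 ± 0.32 at 2 weeks (adjusted p = 3.14e-12), 4.49 ± 0.32 at 4 weeks (adjusted p = 3.59e-15), 3.53 ± 0.37 at 6 weeks of recovery (adjusted p = 5.86e-09) and 2.52 ± 0.34 at 10 weeks (adjusted p = 4.86e-06). Ankrd1 was thus above saline in the same groups as Ccn2, and unlike Ccn2 it was called lower after 10 weeks of recovery than at 4 weeks of bleomycin, with -1.97 ± 0.34 (adjusted p = 1.29e-05). The difference between the genes was not tested. The matrix gene Ccdc80 fell by 1.06 ± 0.14 at 2 weeks (adjusted p = 8.72e-08) and 0.74 ± 0.14 at 4 weeks, and Igfbp3, which binds insulin-like growth factors, fell by 1.11 ± 0.15 at 2 weeks (adjusted p = 1.07e-07). The median log2 fold change of the 18 genes was -0.05 at 2 weeks and 0.01 at 4 weeks, beside 0.00 for all genes in both.

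Of 10 TGF-beta ligands, receptors and SMADs, 0 rose and 2 fell at 2 weeks: the receptor Tgfbr2 by 0.63 ± 0.13 (adjusted p = 0.000141) and the inhibitor Smad7 by 0.72 ± 0.17 (adjusted p = 0.00094). At 4 weeks limma, edgeR and DESeq2 called 0, with 6 at an unadjusted p under 0.05. At 6 weeks of recovery the ligand Tgfb3 rose by 0.75 ± 0.16 (adjusted p = 0.00218), and it was the single member called there. At 10 weeks of recovery the 3 tools called 0, with 2 at an unadjusted p under 0.05.

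Of 15 TGF-beta response genes, 1 rose and 5 fell at 2 weeks, 4 rose at 4 weeks, 3 rose at 6 weeks of recovery and 2 at 10 weeks. Fn1, fibronectin, fell by 1.13 ± 0.19 at 2 weeks (adjusted p = 8.21e-06) and rose by 0.82 ± 0.22 at 6 weeks of recovery (adjusted p = 0.0151), the order of signs seen for Ccn5. Lox, the collagen crosslinking enzyme, rose by 1.02 ± 0.13 at 4 weeks (adjusted p = 4.62e-08) and 1.10 ± 0.15 at 6 weeks of recovery (adjusted p = 4.75e-06), and fell by 1.03 ± 0.16 from 6 to 10 weeks of recovery (adjusted p = 0.00101).

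Between 2 and 4 weeks of bleomycin, 7 of the 15 TGF-beta response genes rose and 0 fell, beside 1.49% and 0.863% of all genes. In the same comparison 4 of the 5 CCN genes rose, a count from which, as said above, nothing is read. Among the 7 were Fn1 (0.79 ± 0.19, adjusted p = 0.0107) and Lox (0.85 ± 0.13, adjusted p = 0.000174). The median log2 fold change of the 15 genes was 0.60, beside 0.00 for all genes.

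The immediate early genes, which cells switch on within minutes of a stimulus and which also respond to tissue handling, were counted because Ccn1 is such a gene. Of 16, 2 rose and 1 fell at 2 weeks, 4 rose and 1 fell at 4 weeks, and 4 rose at 10 weeks of recovery. Limma, edgeR and DESeq2 called 0 at 6 weeks of recovery, where Ccn1 was at its highest median, with 3 at an unadjusted p under 0.05. Fos rose by 1.16 ± 0.20 at 2 weeks (adjusted p = 7.19e-06), differed by 0.20 ± 0.23 at 6 weeks of recovery (adjusted p = 0.642) and rose by 1.01 ± 0.21 at 10 weeks (adjusted p = 0.00217). Fosb rose by 2.08 ± 0.51 at 10 weeks (adjusted p = 0.0087), while Egr3 fell by 1.10 ± 0.17 at 4 weeks (adjusted p = 1.66e-06). From mouse to mouse, the mean log2 value of these genes had an r of 0.59 with Ccn1 and 0.25 with Ccn2, and of -0.11, -0.21 and -0.14 with Ccn3, Ccn4 and Ccn5. Its part in the Ccn1 values was not tested.

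Srf, Mrtfa and Mrtfb, the serum response factor and its coactivators, were called in 0 of 3 cases in every group against saline by limma, edgeR and DESeq2, with at most 1 at an unadjusted p under 0.05. Srf differed by -0.31 ± 0.07 at 4 weeks (adjusted p = 0.000405), under the fold criterion.

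The WNT/beta-catenin target genes were counted since Ccn4 and Ccn5 were named for induction by WNT1. Of 9 tested, 4 fell at 2 weeks, 2 at 4 weeks and 1 at 6 weeks of recovery, and 0 rose in any group against saline. At 10 weeks of recovery limma, edgeR and DESeq2 called 0, with 1 at an unadjusted p under 0.05. Lef1, a transcription factor of this pathway that is strong in hair follicles, fell by 2.04 ± 0.40 at 2 weeks (adjusted p = 8.1e-05) and 1.64 ± 0.40 at 4 weeks (adjusted p = 0.00114), and the WNT inhibitor Notum fell by 1.25 ± 0.24 at 4 weeks (adjusted p = 3.84e-05). Ccn4 rose at 4 weeks, where Lef1 and Notum fell. All 5 hair follicle markers fell at 2 and at 4 weeks, and their summed level moved with Lef1 and Notum, from a median of 37515 in saline (1878 to 200604) to 21 at 2 weeks (10 to 1558) and 39 at 4 weeks (22 to 4492), then 9931 (35 to 93421) and 83989 (1176 to 150891) in recovery, and its part was not tested.

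Lists of markers of the cell types of skin were set beside the CCN genes in the same way. Fibroblast markers fell in 5 of 8 cases at 2 weeks and 3 of 8 at 4 weeks against saline, and their summed level had a median of 107082 in saline (79035 to 171103), 73875 at 2 weeks (39529 to 122638), 110216 at 4 weeks (67865 to 166266), 142802 at 6 weeks of recovery (105641 to 173860) and 78421 at 10 weeks (63737 to 104282). Most of this sum came from the collagen genes Col1a1 and Col1a2, whose medians went from 28500 and 39000 in saline to 47100 and 55200 at 6 weeks of recovery, and neither met the criteria there. Pdgfra, a receptor that marks dermal fibroblasts, was lower than saline in both recovery groups (medians 1420 against 658 and 661) and was the 1 marker of 8 called lower in each, and the medians of Dcn and Dpt were below saline in both as well. The sum was thus not a measure that all 8 markers followed. All 8 markers were above 0 in every mouse, and their part in the CCN values was not tested.

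Endothelial markers rose in 2 of 6 cases at 2 and at 4 weeks and 4 of 6 at 6 weeks of recovery, with summed medians of 2272 in saline (1312 to 2679), 2974 (1583 to 4147), 2983 (2497 to 3445), 3256 (2848 to 3674) and 2907 (2377 to 3389). At 10 weeks of recovery limma, edgeR and DESeq2 called 0 of 6, with 4 at an unadjusted p under 0.05. Schwann cell markers rose in 1 of 6 cases at 2 weeks, 5 of 6 at 4 weeks, 5 of 6 at 6 weeks of recovery and 4 of 6 at 10 weeks, with summed medians of 4662 (2704 to 6514), 5827 (3502 to 7906), 6904 (5753 to 8437), 8439 (5998 to 9935) and 6443 (5027 to 9076) in the order of the groups. The endothelial and the Schwann cell sums both had their medians above that of saline in all 4 groups, as Ccn1 and Ccn2 did, and their part in the CCN values was not tested. Skeletal muscle markers, from the muscle sheet under mouse skin, rose in 1 of 6 cases at 2 weeks and 2 of 6 in each later group, and had summed medians of 173609 to 206992 over the 5 groups and ranged from 71284 to 338491 among mice.

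From mouse to mouse within groups, the score of each list, the mean log2 value of its markers, was set against the CCN genes by the same r of deviations. Ccn3 had an r of 0.68 with endothelial, 0.67 with fibroblast, 0.59 with skeletal muscle, 0.58 with smooth muscle and pericyte, 0.53 with Schwann cell and 0.49 with fat cell markers, each the highest of the 5 genes. Without the 2 mice that stood apart these were 0.60, 0.51, 0.36, 0.48, 0.38 and 0.27. With macrophage markers the r of Ccn3 was instead higher without them, at 0.56 against 0.34 with all 44 mice. In those 42 mice Ccn3 was no longer the highest with skeletal muscle markers, where Ccn1 was at 0.54 and Ccn2 at 0.51, nor with smooth muscle and pericyte markers, where Ccn2 was at 0.59, and with Schwann cell markers Ccn1 and Ccn2 were also at 0.38. Ccn5 had an r of 0.60 with endothelial markers and Ccn2 of 0.55 with smooth muscle and pericyte markers. With all 44 mice Ccn1 was at most at 0.40, with skeletal muscle markers, and Ccn4 at most at 0.37, with smooth muscle and pericyte markers. With hair follicle markers r lay between -0.25 and 0.06 for all 5 genes.

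**Figure D5:**
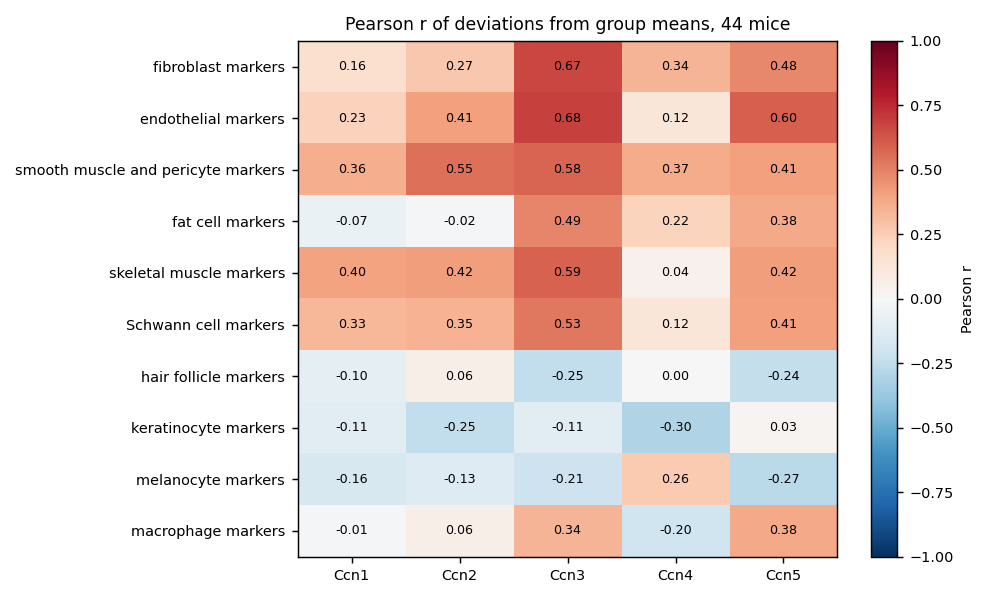
Pearson r over 44 mice between the deviations of each CCN gene and of the score of 10 lists of cell type markers from their group means, red for positive and blue for negative values. The highest value is that of Ccn3 with endothelial markers, 0.68, and the hair follicle row lies between -0.25 and 0.06.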

How the data were processed

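RNA from back skin of 44 mice was sequenced as stranded mRNA libraries. Per the submitters' processing notes, reads were aligned with STAR 2.4.0 to mm10 and normalized with DESeq2 1.12.3; the counting tool, its strand setting and its annotation are not given in the sources used here. The authors deposited a signal for each gene and mouse, namely counts divided by a size factor. Dividing by the value of 1 read gave whole reads for 100% of the values (tolerance 0.01). Same-group libraries differed by more than sampling noise (lowest chi-square per degree of freedom 5.06). All mice were grouped by their labels, and 0 columns were left unused.

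Genes with a mean above 3 were tested with limma 3.58.1 (mean-variance trend, R 4.3.3) on log2(normalized count + 1), with 5 groups in a single fit; calls needed a fold change above 1.5 and a Benjamini-Hochberg adjusted p below 0.05. As alternatives, edgeR 4.0.16 with its quasi-likelihood test and DESeq2 1.42.0 were run on the recovered reads: edgeR called 2922, 3136, 893 and 570 genes against saline in the order of the groups, and limma 2851, 3053, 859 and 519. Each tool was tested on simulated data. Exon lengths were those of GENCODE vM21, and the promoter came from RefSeq. Figures were drawn with matplotlib.

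The members and the gene lists were chosen with earlier results of these data known. Named genes were the 5 CCN genes, for each of them the 5 genes of highest r, and from each pathway list the 3 genes called in most of the 8 comparisons, ties going to the larger fold change; some genes that this rule names are not reported here. Yap1 and the cell type markers were named outside this rule. Foxf2, Arhgef17, Dkk1 and Tchh, which the lists also hold, were not tested. Fat cell, keratinocyte and melanocyte markers were summed as well. Alternatives were other pseudocounts (0.1 and 5), filters, TMM scaling, no fold criterion, fits of the compared groups alone, the replicate number as a block, hair follicle or skeletal muscle scores as covariates, and the 42 mice without saline mouse 1 and 2-week mouse 2. The correlations within single groups were added after seeing the data.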

Additional observations from a re-analysis of the deposited data

Results flagged for a closer look

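In 25 sets of values, the 5 CCN genes in the 5 groups, a single mouse lay far from the others of its group on the log2 scale in 4 sets. Chance alone gives such a mark in about 1 of 20 groups. Each of the 4 mice was the lowest of its group.

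Ccn1 was at 221.7 normalized counts in mouse 1 of the 2-week bleomycin group, beside 333.1 in the next mouse. Ccn3 was at 81.08 in mouse 1 of the saline group, beside 147.9. Ccn4 was at 54.48 in mouse 5 after 10 weeks of recovery, beside 89.51. Ccn5 was at 71.08 in mouse 7 of the 2-week group, beside 114.3.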

How the results depend on the processing

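Over 40 fold changes of CCN genes and 13 alternatives, 503 of 520 values kept their direction and their side of the criteria, 12 gained a call, 4 lost one and 1 changed sign. The sign changed for Ccn3 at 4 weeks against saline (-0.11 with the hair follicle covariate). Calls were lost for Ccn2 at 2 weeks (0.56) and for Ccn5 between 4 weeks of bleomycin and 10 weeks of recovery (0.41) with the muscle covariate, for the latter also with edgeR (0.58), and for Ccn4 in that comparison with the hair follicle covariate (-0.78). The cause was not tested.

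Without the fold criterion, 4 CCN genes were called at 2 weeks instead of 2, as were 50, 43 and 14 pathway genes at 2 weeks, 4 weeks and 6 weeks of recovery against saline, 16 from 2 to 4 weeks of bleomycin, and 33 and 39 from 4 weeks of bleomycin to 6 and 10 weeks of recovery; the shares of all genes, 16.7%, 17.9%, 5.04%, 3.05%, 2.35%, 11.9% and 15.8% in either direction, became 35.6%, 36.6%, 9.08%, 5.83%, 5.61%, 25% and 32.7% in the order of the comparisons given in the report. With the hair follicle covariate, 11 pathway genes were called at 2 weeks, and the shares of all genes were 9.60% and 11.9% in the bleomycin groups, 3.11% after 6 weeks of recovery and 0.0411% between the recovery groups. With the muscle covariate, 3 pathway genes were called at 6 weeks of recovery, and the shares were 2.22% and 1.88% in the recovery groups. Fitting the compared groups alone gave 1.91% at 10 weeks of recovery.

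Between 6 and 10 weeks of recovery, where limma called 0 CCN genes and 1 pathway gene, the counts were 2 and 5 with these groups alone, 1 and 5 with 42 mice, 1 and 5 with the muscle covariate, 1 and 2 with edgeR and 2 and 6 with DESeq2; a pseudocount of 0.1 and the filter at 10 counts in 6 mice each gave 2 pathway genes. Shares of all genes there were 0.088% with limma and 0.329%, 0.34%, 0.311% and 0.37% with these groups alone, 42 mice, the muscle covariate and DESeq2.

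Over 78 pairs of same-numbered mice, deviations had an r of -0.69 to 0.38 (median 0), and 18 pairs were over 0.1. These values show no pairing of the mice by replicate number, but they cannot tell a weak shared effect from none. With the replicate number as a block, no CCN gene gained or lost a call; pathway genes called were 12 at 6 weeks of recovery and 3 between the recovery groups, against 6 and 1 without the block. At these depths, the lowest CCN value rested on 19 reads, and the part of counting error in the spread between mice was not tested.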

Other observations

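Lists that the report leaves without values moved as follows beside the CCN genes. Fat cell markers fell in 3 of 6 cases at 2 weeks and 4 of 6 at 4 weeks against saline, with summed medians of 12672 in saline (10005 to 15270), 9701 at 2 weeks (6029 to 14027) and 8381 at 4 weeks (6357 to 10061), and of 13669 (11019 to 16249) and 16879 (12330 to 23948) after 6 and 10 weeks of recovery. Melanocyte markers fell in 5 of 6 cases at 2 weeks. Keratinocyte markers fell in 1 of 6 cases at 2 and at 4 weeks, with Flg2, a late epidermal differentiation gene, as the gene called. Smooth muscle and pericyte markers had summed medians of 7710, 7103, 9542, 9655 and 7919 in the order of the groups, and 1 of 6 rose in each group against saline, with 1 falling at 2 weeks.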
